A study of Mus musculus with 13 samples.

Results

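The genes described are 10 parts of the Notch pathway, taken from a table of 24394 mouse gene symbols: the ligands Dll4, Dll1 and Jag1, the receptors Notch1 and Notch3, the target genes Dtx1, Heyl and Hes1, and the fringe enzymes Mfng and Lfng. They were chosen by symbol, with their levels in these samples already known, so their values are given as a description without a test. A list of 51 other Notch pathway genes was tested beside them, and 50 of these had enough counts.

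The study turned mouse embryonic fibroblasts (MEF) into cells resembling thymic epithelial cells (TEC) by switching on Foxn1, the transcription factor that TEC depend on. The fibroblasts were primary iFoxn1/+ MEF, which carry a copy of Foxn1 that Cre recombinase can switch on, passaged at most 5 times, and Cre came from the plasmid pPGK-Cre-bpA delivered by nucleofection. The groups were untreated MEF of E13.5 embryos (n = 2), induced cells (iTEC) at day 2 (n = 2) and day 10 (n = 3), the cells without (n = 2) and with (n = 2) surface Epcam that were sorted at day 12, and E15.5 fetal TEC (n = 2). Epcam is a surface protein of epithelial cells. The protocols are worded alike for every sample, so the handling of fetal TEC is not given separately, the genotype field holds N/A, and nothing says whether replicates were separate cultures, embryos or clones. Replicates may therefore differ by technical spread only, and the p-values rest on 1 spread pooled over all groups. That spread was uneven. The median chi-square between 2 replicates, over its expectation from counting error, was 1.81 to 2.89 at day 10 and 729 in the Epcam-positive pair. It was 13.2 to 188 in the other groups.

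Notch is a receptor that is read out between touching cells. A Delta-like or Jagged ligand on one cell binds Notch on its neighbour, proteases release the intracellular part of Notch, and this joins RBPJ and Mastermind-like proteins on DNA to switch on targets of the Hes and Hey families, Nrarp and Dtx1. In the thymus, Dll4 on TEC is the ligand that commits incoming progenitors to the T cell lineage through Notch1. The fringe enzymes Lfng and Mfng add a sugar to Notch that favours Delta-like over Jagged ligands.

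Each library held 35805780 to 86465460 counts. Levels are CPM, counts relative to library size, scaled with TMM factors, which correct for differences in RNA composition, and are divided by transcript length (CPM per kb) wherever genes are compared with each other. In single libraries the floor of 3 counts lies at 0.03 to 0.0776 CPM. Foxn1 itself stood at 15.6 ± 3.75 CPM in MEF (mean ± SD, n = 2) and at 292 to 468 CPM in every library of iTEC and fetal TEC. The counts do not separate the induced copy from the endogenous gene. Fibroblast marker genes summed to 57236 and 61731 CPM in MEF, and thymic epithelial markers to 24104 and 33989 CPM in fetal TEC.

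Several libraries stood apart in ways that their labels do not name. The fetal TEC pair and Epcam-positive replicate 2 were depleted of long transcripts: a gene's deviation from its mean over libraries fell with transcript length (rho -0.424 to -0.381 across 16362 genes), whereas it rose in the other 10 libraries (rho 0.241 to 0.374). The Epcam-positive pair also differed in cell markers, with fibroblast sums of 30345 and 2843 CPM and thymic epithelial sums of 3069 and 26924 CPM in replicates 1 and 2. The last sum was carried by Ccl25 (14954 CPM) and Krt8 (11171 CPM), both above either fetal TEC library. Prss16, Epcam and Psmb11 reached at most 24.7, 30.6 and 398 CPM in this pair, against at least 11550, 312 and 1785 CPM in fetal TEC. MEF and Epcam-negative libraries expressed Xist at 688 to 2475 CPM and Y-linked genes at no more than 0.0144 CPM, and day 2, day 10 and Epcam-positive libraries held Y-linked genes at 65.6 to 302 CPM. Fetal TEC held 41.6 and 42.3 CPM of Y-linked genes and 6.17 and 10.6 CPM of Xist. Comparisons of MEF or Epcam-negative cells with day 2, day 10 or Epcam-positive cells therefore also compare embryos of different sex. Fetal TEC held RNA of both kinds, so their sex is not settled by these values, but they too differ from MEF and Epcam-negative cells in Y-linked RNA. The parts of sex and of the group cannot be told apart in any of these comparisons.

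The macrophage markers had summed levels of 3142 and 3186 CPM in MEF. Fetal TEC had 416 and 508 CPM of them. Among iTEC they reached 213 and 11.8 CPM in Epcam-positive cells, against 2.01 to 6.83 CPM elsewhere. Of 14 thymocyte markers, none was at 0 in fetal TEC, where they summed to 1806 and 799 CPM. In MEF and iTEC the T cell receptor genes Cd3e, Cd3d and Cd3g and the recombinase gene Rag2 were at 0 in every library, and the list summed to 15.2 to 132 CPM. The other 10 were counted in at least 1 iTEC library, chiefly Tcf7 (76.3 to 80.4 CPM at day 10) and Bcl11b (6.21 to 55.5 CPM over all iTEC). Endothelial markers summed to 181 and 122 CPM in fetal TEC, 107 and 154 CPM in MEF and 8.5 to 37 CPM in iTEC, with Tie1 and Cldn5 at 0 in MEF and every iTEC library and the other 8 counted in at least 1 iTEC library. Mural markers reached 4552 and 5790 CPM in MEF, between 1004 and 5516 CPM in iTEC, and 557 and 676 CPM in fetal TEC. In bulk RNA, fewer cells of a type and less RNA per cell cannot be told apart.

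Stretches upstream of 4 genes are shown: Dll4 as the ligand of the thymus, Lfng and Hey2 because they hold the RBPJ motif, and Nrarp as a tested target that holds the Foxn1 core. The sequences are from RefSeq on GRCm38.p6, 5′ to 3′ on the strand of the gene, and stop where the annotated gene begins. RefSeq promoter windows were found for 7 of the 10 genes, and 250 bases before each start were searched on both strands for GTGGGAA, a motif bound by RBPJ, and GACGC, the core bound by Foxn1. Capitals mark a match. Dll4 is shown at chr2:119325534-119325783 (plus strand), Lfng at chr5:140607091-140607319 (plus strand), Hey2 at chr10:30842802-30843033 (minus strand) and Nrarp at chr2:25180508-25180757 (plus strand).
Dll4: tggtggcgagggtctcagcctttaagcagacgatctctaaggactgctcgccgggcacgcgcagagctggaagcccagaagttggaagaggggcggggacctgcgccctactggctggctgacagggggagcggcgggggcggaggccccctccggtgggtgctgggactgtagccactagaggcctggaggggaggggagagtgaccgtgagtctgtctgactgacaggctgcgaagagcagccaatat
Lfng: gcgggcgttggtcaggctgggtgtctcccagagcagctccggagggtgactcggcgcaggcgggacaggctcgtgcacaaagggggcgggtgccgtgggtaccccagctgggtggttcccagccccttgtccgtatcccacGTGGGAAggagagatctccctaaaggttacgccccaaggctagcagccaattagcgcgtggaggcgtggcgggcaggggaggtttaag
Hey2: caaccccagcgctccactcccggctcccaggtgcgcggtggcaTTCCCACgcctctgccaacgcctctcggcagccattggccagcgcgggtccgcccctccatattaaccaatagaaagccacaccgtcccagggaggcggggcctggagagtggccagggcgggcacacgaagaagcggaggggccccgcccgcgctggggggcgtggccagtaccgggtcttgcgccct
Nrarp: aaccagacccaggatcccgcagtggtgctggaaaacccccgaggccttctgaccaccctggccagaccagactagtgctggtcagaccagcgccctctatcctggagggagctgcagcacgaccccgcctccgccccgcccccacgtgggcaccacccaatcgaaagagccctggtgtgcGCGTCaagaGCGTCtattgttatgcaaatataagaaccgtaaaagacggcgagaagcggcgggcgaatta

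The Dll4 window held neither string of letters. Lfng was the 1 described gene with GTGGGAA, 88 to 82 bases before the annotated gene, and Hey2, one of the other targets, held it on the opposite strand 189 to 183 bases before the annotated gene. Nrarp, another target, held GACGC at 2 places on the opposite strand. Among the described genes GACGC was found before Notch1, Jag1 and 1 of the Dll1 starts, and Dtx1 and Notch3 had neither motif. Over all 32851 promoter windows of the same length, 5.42% held GTGGGAA and 22.6% held GACGC. These are matches of letters in a short window, not measured binding.

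Dll4 (chromosome 2, 119325784 to 119335962 on mm10) went from no count in MEF to one of the leading Notch ligands in every induced group. Its level was 0 CPM in both MEF libraries. At day 2 it was 25.1 and 30.4 CPM, and at day 10 it was 101, 96.4 and 104 CPM. Dll4 measured 133 and 161 CPM in Epcam-negative, 70.5 and 208 CPM in Epcam-positive, and 200 and 237 CPM in fetal TEC cells. The induced groups were thus above MEF in every library, day 10 was above day 2 without overlap, and the wide Epcam-positive pair reached below day 10 and above the lower fetal TEC library. Against the floor of 3 counts over both MEF libraries, Dll4 was at least 1148-fold higher at day 2 and at least 4097-fold higher at day 10. From day 2 to day 10 the log2 difference was 1.86 ± 0.44 (standard error), and day 10 was below fetal TEC by a log2 difference of -1.12 ± 0.40. Endothelial cells also carry Dll4. Of the 10 endothelial markers, 1 rose from MEF through day 2 to day 10 without overlap, as Dll4 did. This was Kdr, at 3.73 and 4.57 CPM in MEF, 10.4 and 10.6 CPM at day 2, and 26.9 to 33.6 CPM at day 10. The share of all genes with this order was not determined. In the sorted cells Kdr was below its day 2 level. It stood at 7.92 and 7.98 CPM in Epcam-negative and 2.36 and 9.88 CPM in Epcam-positive cells. Tie1 and Cldn5 were at 0 in every iTEC library. The endothelial sums were 30.7 and 32.6 CPM at day 2 and 30.2 to 37 CPM at day 10. All 10 were counted in fetal TEC (summed levels 181 and 122 CPM). The part of endothelial RNA in the Dll4 level was not tested.

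**Figure D1:**
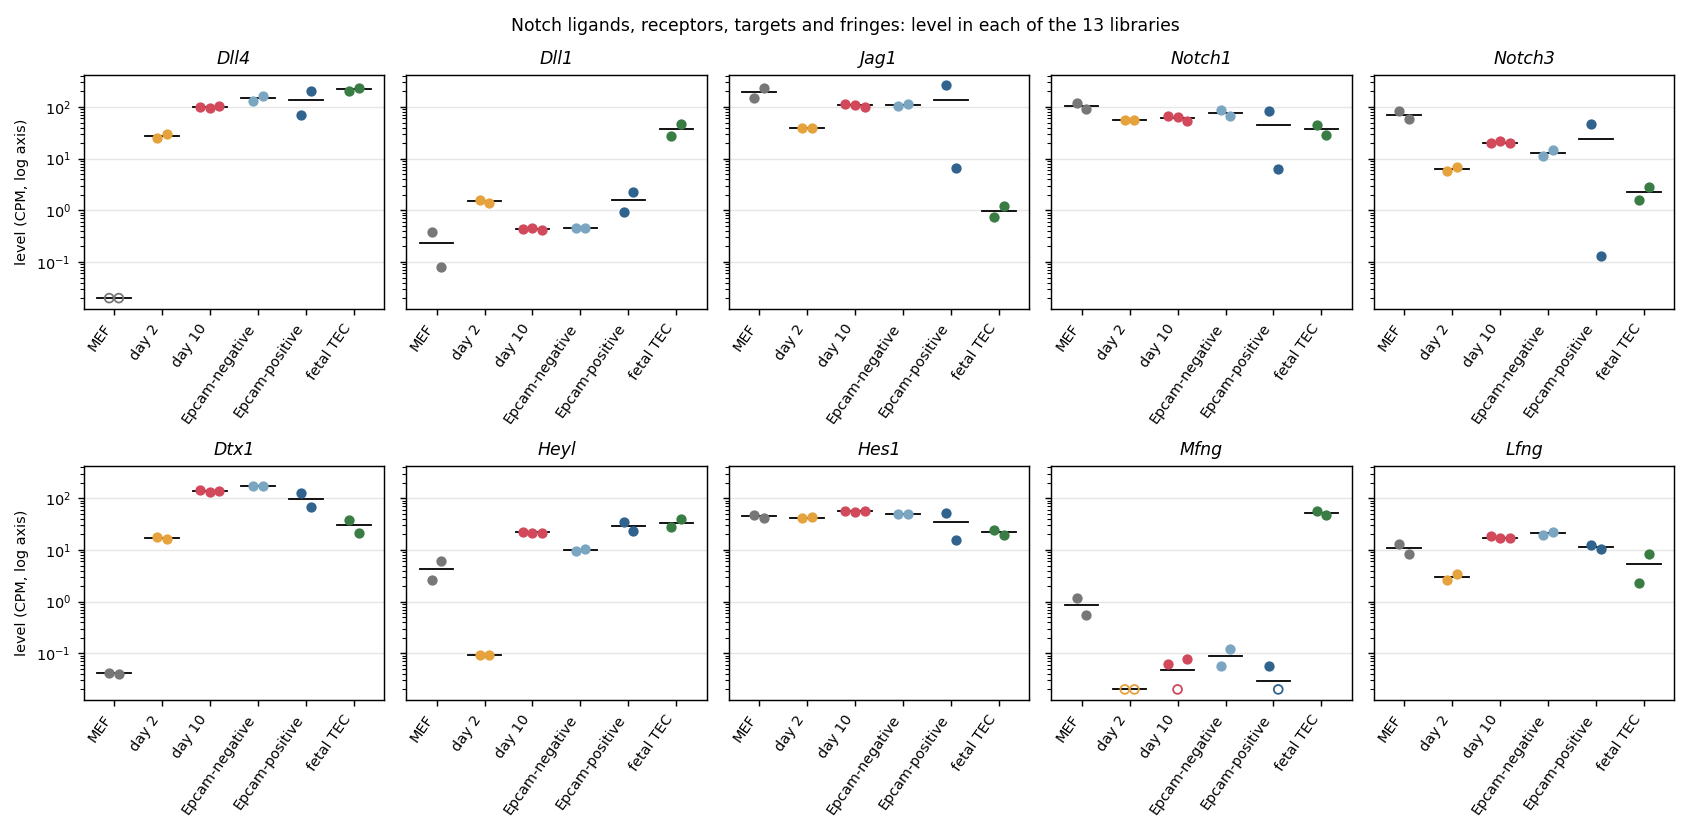
Level of each of the 10 Notch genes in each of the 13 libraries, in CPM on a log axis, with one point per library, a black bar for the mean of a group, and open circles at the bottom for libraries at 0 or below 0.02 CPM. Dll4 and Dtx1 lie at or near the bottom in MEF and above 16 CPM in every other library, Heyl dips at day 2 to 0.0907 and 0.0909 CPM, and Mfng is above 40 CPM in fetal TEC alone.

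Jag1 (chromosome 2, 137081456 to 137116644), a Jagged ligand that many mesenchymal cells carry, was the ligand of the starting fibroblasts. It measured 151 and 234 CPM in MEF, 39.1 and 38.4 CPM at day 2, and 112, 111 and 101 CPM at day 10. The Epcam-negative pair stood at 104 and 113 CPM, next to day 10. The Epcam-positive pair had 264 and 6.52 CPM, one above both MEF libraries and the other far below day 2, and fetal TEC had 0.735 and 1.22 CPM. Jag1 was thus low at day 2, intermediate later and close to absent from fetal TEC, with a log2 difference of -2.31 ± 1.10 for day 2 against MEF and 6.79 ± 1.34 for day 10 against fetal TEC.

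Dll1 (chromosome 17, 15367354 to 15376872), the other Delta-like ligand described, was low in every culture. It stood at 0.387 and 0.0802 CPM in MEF and at 1.61 and 1.36 CPM at day 2. At day 10 it was 0.433, 0.461 and 0.414 CPM, and the Epcam-negative pair had 0.445 and 0.46 CPM. The Epcam-positive pair had 0.909 and 2.28 CPM. Fetal TEC had 27.9 and 46.4 CPM, above every culture library by a wide margin (log2 difference for day 10 against fetal TEC, -6.41 ± 0.71). Dll1 was therefore higher at day 2 than at day 10, unlike Dll4, and its MEF level differed several-fold between the replicates.

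Per length, Jag1 made up nearly all ligand RNA in MEF, Dll4 and Jag1 were the leading ligands at day 2 and day 10, and Dll4 made up most of it in Epcam-negative cells and fetal TEC. The shares are of the summed CPM per kb of Dll1, Dll3, Dll4, Jag1 and Jag2. In MEF, Jag1 made up 99.7 ± 0.317% (SD, n = 2) and Dll4 0%. At day 2, with a smaller sum of 14.8 ± 0.893 CPM per kb against 34.4 ± 10.4 in MEF, Dll4 made up 49.8 ± 3.72% and Jag1 46.7 ± 3.38%. By day 10 the sum was 57.6 ± 0.882 CPM per kb (n = 3), of which Dll4 was 46.6 ± 1.8%, Jag1 33.4 ± 1.75% and Jag2 19.8 ± 0.0657%. The share of Dll4 was thus about the same at day 2 and day 10, within the spread, while its level per kb grew from 6.7 and 8.11 to between 25.7 and 27.9. Dll4 took 58.9 ± 0.415% in Epcam-negative cells and 65.4 ± 2.42% in fetal TEC, where Jag2 (16.7 ± 0.922%), Dll1 (11.4 ± 2.32%) and Dll3 (6.31 ± 0.98%) filled the rest and Jag1 was 0.191 ± 0.0384%. In the Epcam-positive pair Jag1 led in replicate 1 (67.2%, with Dll4 at 26.8%) and Dll4 in replicate 2 (87.1%, with Jag1 at 1.82%).

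**Figure D2:**
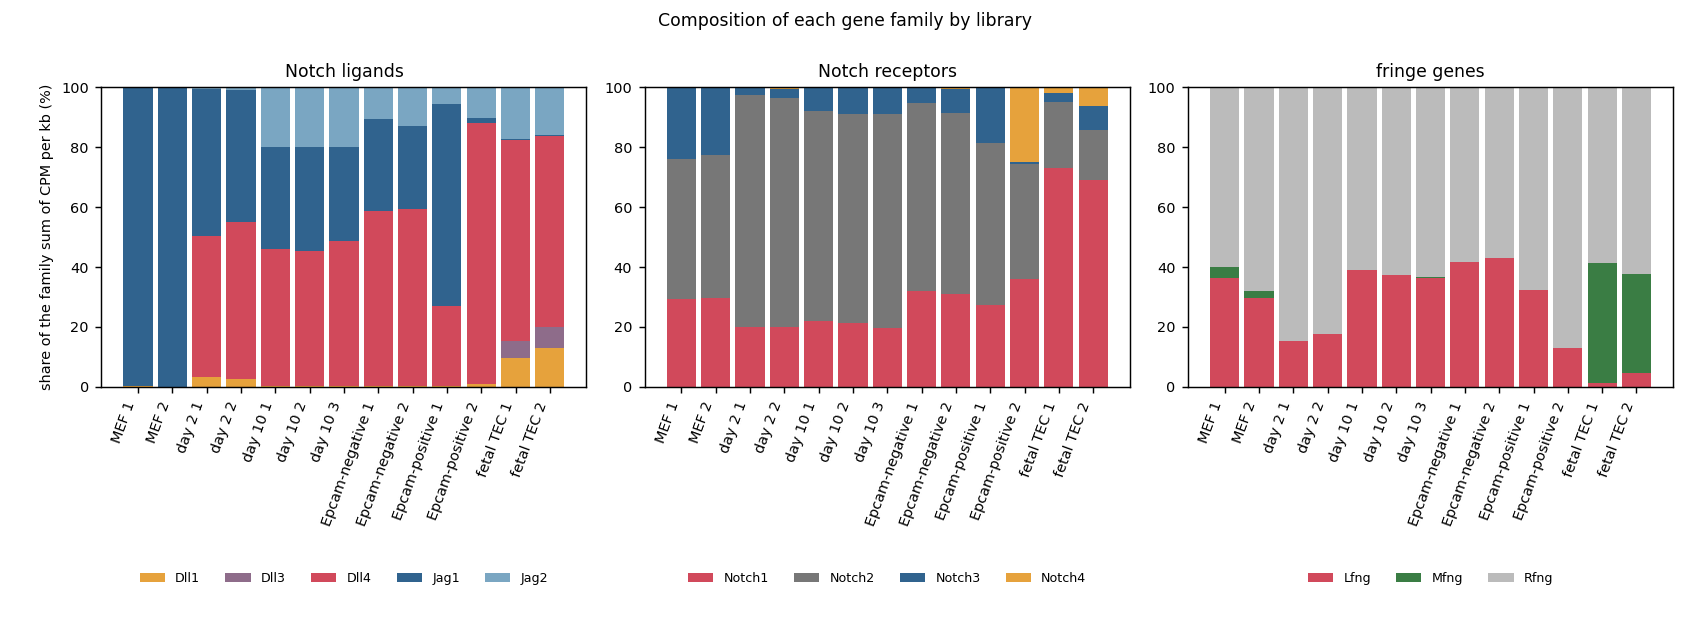
Share of each gene in the summed CPM per kb of its family, in percent, with one stacked bar per library, for the ligands, the receptors and the fringe genes. Jag1 fills the ligand bars of MEF, and Dll4, Jag1 and from day 10 Jag2 share those of iTEC except Epcam-positive replicate 2, where Jag1 is 1.82%. Dll1, Dll3 and Mfng appear as visible bands in fetal TEC.

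Notch1 (chromosome 2, 26457903 to 26516663), the receptor through which T cell progenitors read Dll4, was present in all groups. It measured 120 and 90.1 CPM in MEF, 57.1 and 55 CPM at day 2, and 65.7, 63.5 and 53.8 CPM at day 10. Epcam-negative cells had 86.9 and 66.5 CPM, Epcam-positive cells 83.3 and 6.39 CPM, and fetal TEC 45.7 and 28.8 CPM. The fetal TEC libraries also held thymocyte markers, at sums of 1806 and 799 CPM, and their part in the Notch1 level was not tested. Day 2 and day 10 overlapped, and both stood below MEF (log2 differences of -0.90 ± 0.82 and -0.78 ± 0.73, which are no larger than about their standard errors). The longest Notch1 transcript is 9.49 kb, among the long transcripts that were low in the fetal TEC libraries. Its log2 difference for fetal TEC against MEF was -1.49 ± 0.83 as fitted and 1.11 once a length trend was removed from each library, so no direction is given for it.

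Notch3 (chromosome 17, 32120820 to 32166852), a receptor best known from mural cells and fibroblasts, was lowest among the cultures at day 2, apart from Epcam-positive replicate 2. It stood at 82.4 and 57.4 CPM in MEF and at 5.88 and 6.94 CPM at day 2. At day 10 it was 19.8, 21.8 and 19.9 CPM, between these levels and without overlap with either. Epcam-negative cells had 11.4 and 14.5 CPM, fetal TEC 1.61 and 2.86 CPM, and the Epcam-positive pair 47 and 0.128 CPM. The log2 difference was -3.45 ± 1.52 for day 2 against MEF and 1.68 ± 1.34 for day 10 against day 2. Like Notch3, 4 of the 10 mural markers (Rgs5, Kcnj8, Abcc9 and Cspg4) and 7 of the 10 fibroblast markers were lower at day 2 than in every MEF and day 10 library. The share of all genes with this order was not determined, so these counts cannot be called high or low. The mural sum, carried by Acta2, was 2593 and 2294 CPM at day 2 and 1032 to 1091 CPM at day 10, and the fibroblast sum was 6631 and 7734 CPM at day 2 and 12750 to 13713 CPM at day 10. The part of either cell type in the Notch3 level was not tested.

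Among the receptors per length, Notch2 led in all cultures and Notch1 led in fetal TEC. Notch2, which is not among the 10 genes, made up 47.2 ± 0.494% of the receptor sum in MEF, 76.9 ± 0.375% at day 2, 70.5 ± 0.958% at day 10 and 19.3 ± 3.89% in fetal TEC. Notch1 made up 29.5 ± 0.413%, 20 ± 0.085%, 20.9 ± 1.22% and 71.1 ± 2.85% in the same groups. The part of thymocyte RNA in the fetal TEC shares was not tested. Notch3 had a share of 23.1 ± 0.929% in MEF, 2.71 ± 0.378% at day 2 and 8.34 ± 0.451% at day 10. The whole receptor sum was 37.6 ± 8.03 CPM per kb in MEF, 29.5 ± 0.668 at day 2, 30.6 ± 1.49 at day 10 and 5.5 ± 1.55 in fetal TEC. All receptor transcripts are long, between 6.59 and 10.5 kb. The parts of the length skew and of the group in the low fetal TEC sum cannot be told apart. With the length trend removed, log2 differences of fetal TEC against MEF were 1.11 for Notch1, -1.34 for Notch2, -2.44 for Notch3 and 3.43 for Notch4. Shares within the family are between transcripts of more similar length.

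Lfng (chromosome 5, 140607320 to 140615545), a fringe enzyme, was lowest among the cultures at day 2. It measured 13.2 and 8.26 CPM in MEF, 2.58 and 3.36 CPM at day 2, and 18.3, 16.8 and 16.9 CPM at day 10. Epcam-negative cells had 19.5 and 22.3 CPM, Epcam-positive cells 12.3 and 10.4 CPM, and fetal TEC 2.27 and 8.33 CPM. Day 2 was below all MEF and day 10 libraries, and day 10 was above MEF without overlap. The log2 difference was -1.85 ± 0.56 for day 2 against MEF and 2.55 ± 0.55 for day 10 against day 2.

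Mfng (chromosome 15, 78755882 to 78773475), a second fringe enzyme, was a gene of fetal TEC libraries and not of the cultures. It stood at 57.4 and 46.6 CPM in fetal TEC and at 1.15 and 0.542 CPM in MEF. No count was found at day 2, and the highest level in any iTEC library was 0.12 CPM, in Epcam-negative replicate 2. The day 2 level was at least 39.6-fold lower than MEF, against 3 counts over the group, and the log2 difference of day 10 against fetal TEC was -10.03 ± 1.08. Macrophage markers summed to 3142 and 3186 CPM in MEF and to 6.77 and 6.83 CPM at day 2. The part of macrophage RNA in the MEF level of Mfng was not tested. Thymocytes are also known to express Mfng. All 14 thymocyte markers were counted in the fetal TEC libraries, with summed levels of 1806 and 799 CPM, and their part in the Mfng level was not tested.

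Within the fringe family, Rfng (the third member of the family, not among the 10) led everywhere, with 57.5 to 83.6% of the group sums per kb. Lfng made up 32.9 ± 4.58% in MEF, 16.4 ± 1.55% at day 2, 37.6 ± 1.26% at day 10 and 3.03 ± 2.47% in fetal TEC. The share of Mfng was 36.6 ± 5.05% in fetal TEC and at most 3.14% in the other groups. The share of Mfng at day 10 was 0.123 ± 0.109%, and the family sum at day 10 was 20 ± 0.451 CPM per kb against 14 ± 2.66 in MEF and 76.2 ± 0.729 in fetal TEC. Fringe transcripts are short, between 1.86 and 2.31 kb. The parts of the length skew and of the group in the fetal TEC sum cannot be told apart here either. With the length trend removed, log2 differences of fetal TEC against MEF went from 2.38 to 1.51 for Rfng. They went from 5.94 to 4.9 for Mfng and from -1.02 to -1.59 for Lfng.

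Dtx1 (chromosome 5, 120680202 to 120711927), which encodes the ubiquitin ligase Deltex1 and is a Notch target in T cell progenitors, appeared in the cultures with Dll4. MEF held 3 and 2 counts, or 0.0415 and 0.0401 CPM. At day 2 it was 17.8 and 16.4 CPM, and at day 10 it was 142, 132 and 136 CPM. Epcam-negative cells had 169 and 174 CPM, Epcam-positive cells 129 and 68.9 CPM, and fetal TEC 38.3 and 21.2 CPM. All day 10 and sorted libraries were above both fetal TEC libraries, the opposite order to the group means of Dll4. Thymocytes also express Dtx1. Of the 14 thymocyte markers 4 were at 0 in every iTEC library (Cd3e, Cd3d, Cd3g and Rag2). Of the 14, 1 rose from MEF through day 2 to day 10 without overlap, as Dtx1 did. This was Tcf7, at 4.88 and 3.55 CPM in MEF, 8.07 and 6.27 CPM at day 2 and 76.3 to 80.4 CPM at day 10. The share of all genes with this order was not determined. Tcf7 stood at 58.4 to 64.3 CPM in Epcam-negative cells and at 92.8 to 265 CPM in fetal TEC. The part of thymocyte RNA in the Dtx1 level was not tested. The log2 difference was 8.64 ± 0.53 for day 2 against MEF, 3.0 ± 0.37 for day 10 against day 2 and 2.20 ± 0.35 for day 10 against fetal TEC. Since MEF held 5 counts in all, the differences from MEF depend on these few counts.

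Heyl (chromosome 4, 123233556 to 123249875), a Hes and Hey family repressor known as a direct target of Notch, behaved otherwise at day 2. It measured 2.63 and 6.04 CPM in MEF and 0.0907 and 0.0909 CPM at day 2, where both libraries together held 12 counts. At day 10 it was 22.6, 21.7 and 21.3 CPM. Epcam-negative cells had 9.6 and 10.6 CPM, Epcam-positive cells 34.5 and 23.5 CPM, and fetal TEC 28.1 and 39.5 CPM. The fetal TEC libraries also held thymocyte, endothelial and mural markers, and their part in the Heyl level was not tested. The order of the groups was day 2, MEF, Epcam-negative, day 10, Epcam-positive and fetal TEC, and the last pair of groups overlapped. The log2 difference was -5.54 ± 0.53 for day 2 against MEF, 7.88 ± 0.57 for day 10 against day 2 and 1.52 ± 0.42 for Epcam-positive against Epcam-negative, where both libraries of the one stood above both of the other.

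Hes1 (chromosome 16, 30064384 to 30067796), a general Notch target with many other inputs, stood at similar levels in MEF and most cultures. It measured 46.7 and 42.4 CPM in MEF, 40.7 and 43.3 CPM at day 2, and 56.1, 55.1 and 55.8 CPM at day 10. Epcam-negative cells had 48.9 and 50.6 CPM, Epcam-positive cells 52.7 and 15.6 CPM, and fetal TEC 24.3 and 19.3 CPM. MEF and day 2 overlapped, with a log2 difference of -0.08 ± 0.45. That between day 10 and day 2 was 0.41 ± 0.42, although the libraries did not overlap.

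Ligand and targets therefore did not keep one ratio across the groups. Per length, Dtx1 stood at 0.66 and 0.5 of the level of Dll4 at day 2, at 1.31, 1.28 and 1.21 at day 10, and at 0.178 and 0.0833 in fetal TEC. The Epcam-negative pair had 1.18 and 1, and the Epcam-positive pair had 1.69 and 0.307. For Heyl the same ratio was 0.00298 and 0.00247 at day 2, 0.185, 0.186 and 0.168 at day 10, and 0.116 and 0.138 in fetal TEC. The Heyl ratio was 0.0596 and 0.0541 in the Epcam-negative pair and 0.404 and 0.0933 in the Epcam-positive pair. At day 2, Dll4 and Dtx1 had thus appeared while Heyl was below its MEF level, and at day 10 all 3 were above it. The Dtx1 ratio was lower in the fetal TEC pair than in any iTEC library, while the Heyl ratio of fetal TEC lay between those of Epcam-negative and day 10.

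The genes most like Dll4 over the 13 libraries, among 14096 genes with at least 1 CPM on average, were Crip3 (Pearson r = 0.986), the chemokine gene Ccl25 (0.977), Serpini1 (0.963), the keratin gene Krt18 (0.963) and the polarity gene Llgl2 (0.961). Dtx1 was most like Abat (0.992), which encodes the enzyme that breaks down GABA, the hedgehog ligand gene Dhh (0.966), Adamtsl2 (0.965), Rfx2 (0.958) and Rasl11a (0.957). Heyl was most like Cd200 (0.956), Serpinb6b (0.955), Mfsd8 (0.923), Sema3b (0.92) and the Notch target Nrarp (0.915). These are descriptions on log2(CPM + 0.5), and the libraries fall into 6 groups that any gene with a similar group order shares. Over the 10 libraries without the length skew, the values were 0.956 to 0.993 for the neighbours of Dll4, 0.971 to 0.997 for those of Dtx1 and 0.926 to 0.953 for those of Heyl.

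The other Notch pathway genes were tested with edgeR's quasi-likelihood test over all 17004 genes with enough counts, and a gene was called where its Benjamini-Hochberg adjusted p was under 0.05. The comparisons share samples, MEF being the control in 4 of them, so their counts are not independent of each other. All groups share one estimate of the spread. Fits without the wide Epcam-positive pair called more genes, in the pathway list and over all genes alike, and are given beside each comparison.

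At day 2 a single pathway gene of 50 was called, against 5.52% of all genes (2.87% higher and 2.65% lower). Hey1, a Hes and Hey family repressor, measured 7.31 and 7.18 CPM in MEF and 1.2 and 1.79 CPM at day 2, and it fell by 2.27 ± 0.36 on the log2 scale (edgeR adjusted p = 0.00562). The call was lost without day 2 replicate 1 (edgeR adjusted p = 0.094). None of the 5 other ligands, 2 other receptors, 10 receptor proteases or 7 nuclear complex genes was called. The other tested targets were also low, without passing the test: Hey2 stood at 0.49 and 0.338 CPM at day 2 against 2.93 and 4.85 CPM in MEF, and Nrarp at 0.272 and 0.403 CPM against 0.732 and 1.54 CPM. At an unadjusted p under 0.05, 11 of the 50 passed (22%, against 17.5% of all genes). The median log2 difference of the list was -0.26, against 0 for all genes. Without both Epcam-positive libraries 16 were called (32.0%, against 22.8% of all genes), 7 higher and 9 lower. The count was 0 without day 2 replicate 1, 2 without MEF replicate 1 and 4 without either fetal TEC library, where 1.68%, 2.89% and 5.70 to 5.73% of all genes were called.

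**Figure D3:**
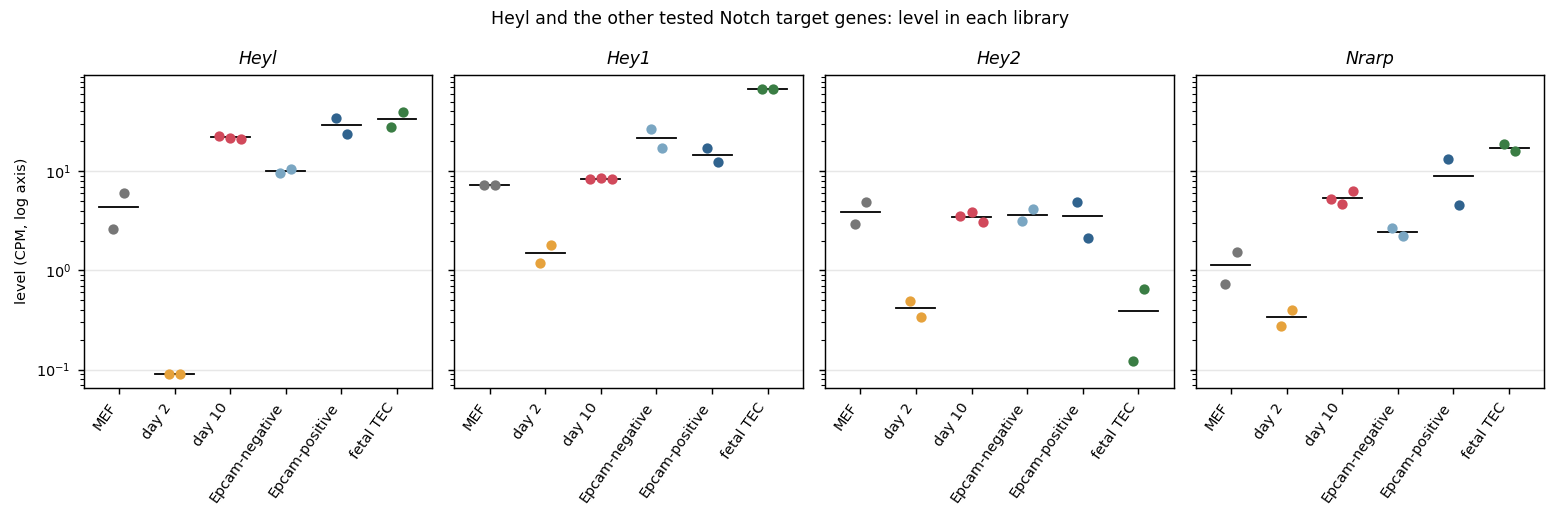
Level of Heyl and of the 3 other tested target genes Hey1, Hey2 and Nrarp in each library, in CPM on a log axis, with one point per library and a black bar for the mean of a group. All 4 are lowest among the cultures at day 2, and Hey2, unlike the others, is low in fetal TEC as well, at 0.122 and 0.649 CPM.

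At day 10 the pathway genes that rose against MEF included 3 of the 5 other ligands. Of the 50, 6 were higher and 0 lower, against 16.0% of all genes called (9.42% higher and 6.58% lower). Jag2, a Jagged ligand, went from 0.193 and 0.0802 CPM in MEF to 59.1, 57.7 and 57.8 CPM, a log2 rise of 8.67 ± 0.57 (edgeR adjusted p = 3.21e-05). Dner, a ligand known from neurons, rose by 4.66 ± 0.43 (edgeR adjusted p = 0.000142), from 0.857 and 0.682 CPM to between 18.6 and 21.5 CPM. Dlk2, a Delta-like protein that lacks the part binding Notch in the usual way, rose by 2.92 ± 0.56 (edgeR adjusted p = 0.00721). Without MEF replicate 1 or 2 the rise of Dlk2 was 4.11 or 2.30, and that of Jag2 was 9.44 without MEF replicate 1.

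The corepressors Tle4 and Tle1 and the target Nrarp made up the rest of the day 10 calls. Tle4 rose by 2.76 ± 0.34 (edgeR adjusted p = 0.000727). Tle1 rose by 1.08 ± 0.29 (edgeR adjusted p = 0.0309), a call lost without MEF replicate 2 or any one day 2, day 10 or Epcam-negative library (adjusted p 0.062 to 0.223) or with the length trend removed (adjusted p = 0.325). Nrarp, whose protein binds and restrains the Notch complex, stood at 5.26, 4.69 and 6.31 CPM, a rise of 2.25 ± 0.59 (edgeR adjusted p = 0.0293). This call was lost without any one MEF, day 2, day 10 or Epcam-negative library (adjusted p 0.052 to 0.16). At an unadjusted p under 0.05, 12 of the 50 passed (24%, against 29.6% of all genes). The list's median log2 difference was -0.02, against 0 for all genes. Without both Epcam-positive libraries 21 were called (42.0%, against 40.2% of all genes), 11 higher and 10 lower, and with the length trend removed 5 were higher and 3 lower (18.2% of all genes).

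From day 2 to day 10, all 3 tested targets rose. Hey1 rose by 2.48 ± 0.35 on the log2 scale to 8.27, 8.56 and 8.25 CPM (edgeR adjusted p = 0.00165), Nrarp by 3.99 ± 0.65 (edgeR adjusted p = 0.00373) and Hey2 by 3.07 ± 0.81 to 3.5, 3.89 and 3.05 CPM (edgeR adjusted p = 0.0341). The day 10 differences of Hey1 and Hey2 from MEF, where they stood at 7.31 and 7.18 CPM and at 2.93 and 4.85 CPM, did not pass the test. The call on Hey2 was lost without MEF replicate 2 or any one day 2, day 10 or Epcam-negative library (adjusted p 0.0502 to 0.269), and that on Nrarp without day 2 replicate 1 (adjusted p = 0.07). The targets are small in number, and Hes5, a further target of the list, reached at most 0.311 CPM and was not tested.

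Of the 50 pathway genes 6 rose and 2 fell from day 2 to day 10, against 12.6% of all genes called (8.24% higher and 4.41% lower). The other 3 that rose were Jag2 (log2 6.88 ± 0.52), Dner (5.19 ± 0.44) and Tle4 (1.77 ± 0.33), with edgeR adjusted p-values of 9.23e-05, 0.00015 and 0.00691. Without day 2 replicate 2 the rise of Dner was 5.82, and the call on Tle4 was lost without either day 2 library (adjusted p 0.085 to 0.093) or with the length trend removed (adjusted p = 0.134). Dlk1, a Delta-like protein without the usual Notch-binding part, fell by 2.31 ± 0.35, from 102 and 94.1 CPM to 19.4, 14.1 and 25.8 CPM (edgeR adjusted p = 0.00259). Rbpj, the DNA-binding partner of Notch, fell by 1.72 ± 0.46, from 272 and 258 CPM to 81.7, 79.6 and 79.4 CPM (edgeR adjusted p = 0.035). The Rbpj call was lost without MEF replicate 2 or any one day 2, day 10 or Epcam-negative library (adjusted p 0.057 to 0.189) and with scaling by library size alone (adjusted p = 0.084). The list's median log2 difference was 0.13, against 0.02 for all genes, and 14 of 50 passed at an unadjusted p under 0.05 (28.0%, against 25.3% of all genes). Without both Epcam-positive libraries 21 were called (42.0%, against 35% of all genes), 15 higher and 6 lower. Without day 2 replicate 1 or 2 the count was 4 or 5, with 3.15 or 3.49% of all genes called. With the length trend removed, 5 were higher and 3 lower (13.2% of all genes).

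**Figure D4:**
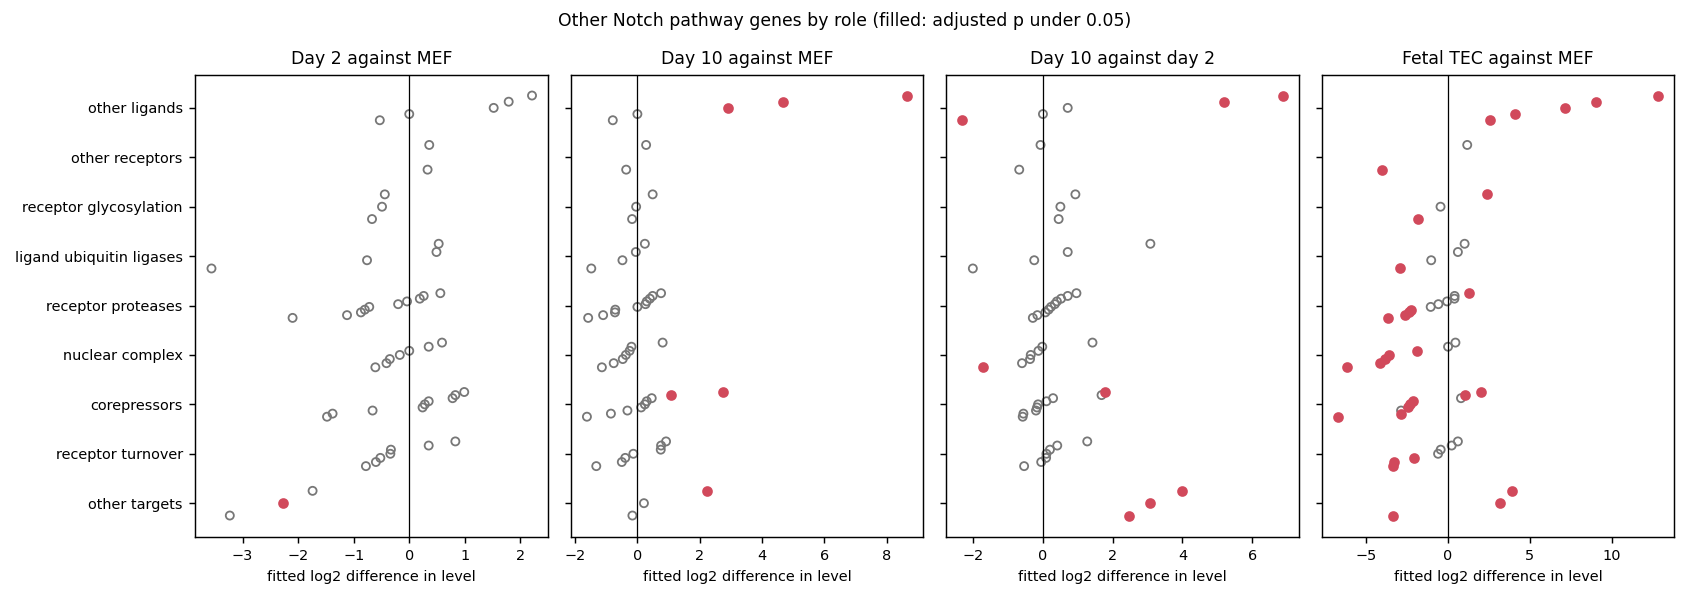
Fitted log2 difference in level of each of the 50 tested Notch pathway genes that are not among the 10, by role, for day 2 and day 10 against MEF, day 10 against day 2, and fetal TEC against MEF. Filled points passed an adjusted p under 0.05 and the horizontal axes differ between panels. The 3 targets are left of 0 at day 2 and right of 0 from day 2 to day 10, and nuclear complex genes in fetal TEC are mostly left of 0. The value of Dll3 in fetal TEC, a gene at 0 in MEF, depends on the prior count of the fit.

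Among the sorted cells, Epcam-negative iTEC differed from MEF in 5 higher genes and 1 lower gene of the 50, against 11.9% of all genes called (7.37% higher and 4.53% lower). Jag2 (log2 8.14 ± 0.56), Dner (6.21 ± 0.47), Dlk2 (4.41 ± 0.62), Tle4 (2.45 ± 0.35) and Hey1 (1.58 ± 0.35) rose, with edgeR adjusted p-values of 5.98e-05, 6.2e-05, 0.00174, 0.002 and 0.0181. Hey1 stood at 26.4 and 17 CPM, and its call was lost without either MEF library or Epcam-negative replicate 1 (adjusted p 0.076 to 0.17). Without MEF replicate 1 or 2 the difference of Dlk2 was 5.60 or 3.79, and without MEF replicate 1 that of Jag2 was 8.91. Dlk1 fell by 2.72 ± 0.41 to 5.39 and 4.99 CPM (edgeR adjusted p = 0.00257). Of the list, 10 passed at an unadjusted p under 0.05 (20%, against 26.0% of all genes), and its median log2 difference was 0.02, against 0 for all genes. Without both Epcam-positive libraries 21 were called (42.0%, against 35.7% of all genes), 12 higher and 9 lower. With the length trend removed 3 were higher and 2 lower (14.3% of all genes), and Tle4 and Hey1 lost their calls (adjusted p = 0.053 and 0.057).

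Between Epcam-positive and Epcam-negative cells edgeR called 0 of the 50, against 0.259% of all genes (0.241% higher and 0.0176% lower). At an unadjusted p under 0.05 there were 8 (16.0%, against 19.2% of all genes), and DESeq2's Wald test called 2 (4.00%, against 12.1% of all genes). The libraries of the positive pair lay far apart in many of these genes, such as Notch2 at 182 and 7.57 CPM and Rbpj at 77.1 and 19 CPM. Without Epcam-positive replicate 1, the lone replicate 2 against the negative pair gave 31 calls (62.0%, against 53.5% of all genes), and without replicate 2 the lone replicate 1 gave 1 (2.80% of all genes). With one library in a group, these fits assume that it varies like the other groups. Among the 10 genes, Jag1 and Notch3 took opposite directions with and without replicate 1, with log2 differences of 0.32 and 0.87 for the pair and -4.06 and -6.64 without it.

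Fetal TEC differed from MEF in 11 higher and 21 lower genes of the 50, against 57.8% of all genes called, 31.5% higher and 26.3% lower. All 5 other ligands were higher. Jag2 (70.6 and 81.3 CPM) rose by 9.06 ± 0.58, Dlk2 (49.3 and 70 CPM) by 7.14 ± 0.70, Dner (13.1 and 13.4 CPM) by 4.10 ± 0.42 and Dlk1 (197 and 204 CPM) by 2.55 ± 0.41, with edgeR adjusted p-values of 1.98e-05, 0.000115, 0.000143 and 0.00123. Dll3, a Delta-like protein that acts within its own cell, was at 0 in MEF and at 11.7 and 18.2 CPM in fetal TEC, at least 591-fold higher. The targets Hey1 (67.7 and 66.6 CPM) and Nrarp (18.8 and 15.8 CPM) rose by 3.21 ± 0.37 and 3.93 ± 0.66 (edgeR adjusted p = 0.000237 and 0.00159). The part of thymocyte, endothelial and mural RNA in these fetal TEC levels was not tested.

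As fitted, without a correction for transcript length, the genes that were lower in fetal TEC included much of the machinery inside the receiving cell. Of 7 nuclear complex genes 5 fell and 0 rose, of 9 corepressors 5 fell and 2 rose, of 10 receptor proteases 4 fell and 1 rose, and of 7 receptor turnover genes 3 fell and 0 rose. Those with the smallest p were Aph1b, a subunit of the protease that cuts Notch, lower by a log2 difference of -3.66 ± 0.44, Numb, which draws Notch into endosomes (-3.26 ± 0.45), the Mastermind gene Maml2 (-6.12 ± 0.86), Pofut1, which puts fucose on Notch (-1.80 ± 0.26), Rbpj (-3.57 ± 0.56) and the acetyltransferase gene Crebbp (-1.89 ± 0.32). Their edgeR adjusted p-values were 0.000296 for Aph1b, 0.000641 for Numb, 0.000677 for Maml2, 0.000701 for Pofut1, 0.00115 for Rbpj and 0.00157 for Crebbp. The list's median log2 difference was -0.58, against 0.18 for all genes, and 34 passed at an unadjusted p under 0.05 (68.0%, against 63.3% of all genes). Without both Epcam-positive libraries 40 were called (80.0%, against 74.2% of all genes).

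Transcript length moved with these differences. The 11 higher genes had a median longest transcript of 2.58 kb (0.708 to 5.11) and the 21 lower genes one of 5.48 kb (2.55 to 12.3). When each library's trend with length was removed, 13 genes were higher and 16 lower, against 48.4% of all genes called. Pofut1 and Crebbp then lost their calls, at log2 differences of -0.03 and 0.93 (edgeR adjusted p = 0.976 and 0.292), while Rbpj (-1.81), Maml2 (-3.93) and Aph1b (-2.18) stayed called at smaller differences. The values with the trend removed were 6.12 for Dlk2, 10.61 for Jag2, 3.80 for Dlk1 and 2.61 for Hey1. Without single libraries, Jag2 was 9.86 without MEF replicate 1, Dlk2 8.36 or 6.50 without MEF replicate 1 or 2, Nrarp 4.54 without MEF replicate 2, and Numb and Maml2 -3.96 and -7.13 without fetal TEC replicate 2. Of the 10 genes, Dll4, Dll1, Dtx1, Heyl and Mfng stayed above MEF and Jag1, Notch3, Hes1 and Lfng below it with the trend removed.

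**Figure D5:**
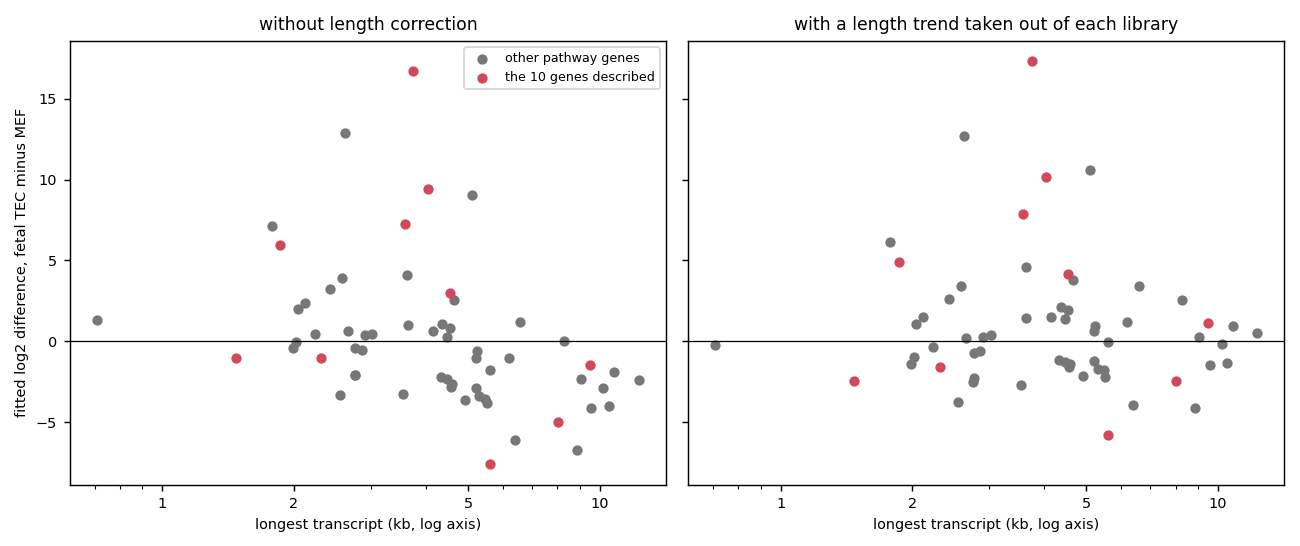
Longest transcript in kb on a log horizontal axis and fitted log2 difference of fetal TEC against MEF on the vertical axis, for the 10 genes and the other Notch pathway genes, as fitted and with each library's length trend removed. As fitted, the genes with transcripts above 8 kb are no higher than 0.02, and with the trend removed they lie on both sides of 0. The values of Dll4 and Dll3, which are at 0 in MEF, depend on the prior count of the fit.

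Day 10 iTEC were above fetal TEC in 22 of the 50 genes and below it in 9, against 59.3% of all genes called, 27.6% higher and 31.7% lower. The higher genes with the smallest p were Numb (log2 difference 4.02 ± 0.45), Pofut1, Aph1b, Maml2, Tle4 and the protease gene Furin. The lower ones were Hey1 (-3.01 ± 0.32), Dlk1 (-3.34 ± 0.36), Dlk2 (-4.22 ± 0.51), the fringe gene Rfng (-1.88 ± 0.36), Hdac1 (-1.76 ± 0.39) and Dll3, which had no count at day 10 and was at least 688-fold lower. Their edgeR adjusted p-values were 0.000118 for Hey1, 0.000139 for Dlk1, 0.00026 for Dlk2, 0.00234 for Rfng, 0.00464 for Hdac1 and 0.00351 for Dll3. Jag2, at 57.7 to 59.1 CPM against 70.6 and 81.3 CPM, was not called.

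The split of these calls turned with the length trend removed, to 11 higher and 15 lower, against 52.4% of all genes called. Pofut1, Aph1b, Tle4 and Hdac1 then lost their calls, at log2 differences of -0.18, 1.27, 0.61 and -1.07 (edgeR adjusted p 0.071 to 0.794), and Furin, Maml2 and Rfng stayed called at 1.39, 3.37 and -1.26. Numb and Maml2 were 4.72 and 6.76 without fetal TEC replicate 2. The higher genes had a median longest transcript of 5.4 kb and the lower genes one of 2.58 kb. The list's median log2 difference was 0.76, against -0.1 for all genes, and 32 passed at an unadjusted p under 0.05 (64.0%, against 64.5% of all genes). Without both Epcam-positive libraries 38 were called (76.0%, against 75.3% of all genes).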

How the data were processed

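RNA of 13 libraries in 6 groups was analysed. The authors deposited unscaled read counts for each gene symbol. Per the submitters' processing notes, the mm10 build and HISAT2, StringTie, SAMtools, Trimmomatic, FastQC and DESeq2 were used, with no versions named. Whether counting used strand, and how it split shared reads, was not given there. Genes that overlap others, on either strand (Dll4, Dll1, Notch1 and Notch3), are therefore uncertain as single genes. Columns named for no Cre were taken as MEF.

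The 10 genes, the lists and the markers were chosen with earlier results of these data known. Counts were fitted in R 4.3.3 with edgeR 4.0.16: TMM factors of 0.705 to 1.16, filterByExpr by group (17004 genes), and 1 robust quasi-likelihood model over the 13 libraries, whose common dispersion was 0.296. The 7 comparisons were F tests with Benjamini-Hochberg adjustment. The standard error is the log2 difference over the square root of F. The steps were tested on simulated data. Bounds use 3 counts over the group at 0 and cover counting error only. Named genes are the 10, up to 6 called pathway genes in each direction with the smallest p, and the 5 nearest patterns of Dll4, Dtx1 and Heyl. Others named were chosen after their values were seen. Transcript lengths and positions came from GENCODE M21 (mm10), with a length for 95.7% of symbols, and promoters from RefSeq (GRCm38.p6). Alternatives were DESeq2 1.42.0 size factors and Wald test, library size alone, other filters, only the groups compared, no Epcam-positive libraries, the 10 libraries without length skew, a length offset, each library left out in turn, and a block for replicate number. Figures used matplotlib 3.10.9.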

Additional observations from a re-analysis of the deposited data

How the results depend on the processing

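Counts of called pathway genes changed with the libraries in the fit, as did those of all genes. For day 2 and day 10 against MEF, then day 10 against day 2, then Epcam-negative cells against MEF, they were 1, 6, 8 and 6 in all libraries, 16, 21, 21 and 21 without both Epcam-positive libraries, 27, 29, 25 and 28 in the 10 libraries without length skew, and 9, 25, 33 and 15 with only the groups compared. For day 2 against MEF, day 10 against day 2 and Epcam-negative against MEF, DESeq2's Wald test gave 10, 14 and 10 of 50. It called 13.8, 21.2 and 21.9% of all genes there. DESeq2 size factors, library size alone and the length offset gave 3, 2 and 3 at day 2 against MEF (5.59, 4.71 and 6.48% of all genes). Epcam-positive against Epcam-negative gave 0 of 50 (0.259% of all genes), and 2 of 50 by the Wald test (12.1% of all genes). With 1 library left out, the ranges were 0 to 16, 4 to 21, 4 to 20, 5 to 21, 0 to 31, 28 to 40 for fetal TEC against MEF and 22 to 38 for day 10 against fetal TEC. The high ends came without 1 Epcam-positive library, as did those of all genes called.

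No label says that replicate numbers pair the samples, and same-numbered deviations correlated at r = -0.215 for day 2 against MEF and -0.0958 to 0.116 elsewhere. With the replicate number as a block, 1, 4, 5, 5, 0, 31 and 26 of 50 pathway genes were called in the 7 comparisons. Of all genes, 2.30, 6.12, 4.89, 5.38, 0.00588, 46.5 and 41.4% were called.

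Reversed differences, on the log2 scale, were Hes1 at day 2 against MEF by library size alone (0.037) and, with the length offset, Hes1 at day 10 (-0.022) and in Epcam-negative cells (-0.324) against MEF, Notch1 for day 10 against day 2 (-0.117), fetal TEC against MEF (1.112) and day 10 against fetal TEC (-2.059), Dll4 (1.141) and Dtx1 (0.049) for Epcam-positive against Epcam-negative, Crebbp for fetal TEC against MEF (0.930) and Pofut1 for day 10 against fetal TEC (-0.178). Without Epcam-positive replicate 1, Jag1 (-4.058) and Notch3 (-6.635) reversed between the sorted groups, and without replicate 2 they were 1.286 and 1.861. The cause was not tested, except that the length offset changes values by transcript length by construction. Of 45 named calls, 30 were kept under every setting that gave a value, and 15 were lost or reversed in at least 1. Among all genes called, the share higher was 52, 58.9 and 61.9% for day 2, day 10 and Epcam-negative against MEF. It was 61.2, 69.5 and 75.7% by library size alone and 41.2, 46.1 and 44.4% with the length offset. Medians of all genes by library size alone were 0.118 and 0.227 for day 10 and Epcam-negative against MEF, -0.242 between the sorted groups and 0.171 for day 10 against fetal TEC, where the main scaling gave 0, 0, 0 and -0.097. With DESeq2 size factors they were 0.324 for fetal TEC against MEF (0.184 in the main scaling) and -0.254 for day 10 against fetal TEC. Low counts limit Dll1, Mfng and MEF Dtx1.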
